A study of Oryza sativa with 8 samples.

Results

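The auxin response families of rice were examined as 88 genes of 46120 in a table of gene expression in roots and leaves. A gene was a member when its description in the table named an Aux/IAA protein, a SAUR protein, an auxin response factor, an auxin-responsive protein or GH3. The gene OsJAR1, whose enzyme joins isoleucine to jasmonate, was matched by the same words and left out, so that 88 of 89 matched rows remained. The choice used the descriptions and no measured value. All plants were of the cultivar Tsukinohikari, grown in hydroponic culture with sufficient iron. The control was a non-transformant (NT), with 1 root and 1 leaf sample. The other plants were 3 transgenic lines labelled as overexpressing OsbZIP83, a bZIP transcription factor, and lines 13, 15 and 19 each gave 1 root and 1 leaf sample. The labels name the 3 as separate lines. The labels do not name the promoter that drives the transgene, the age of the plants or how many plants made up a sample. The comparisons ask how the families differ between lines and NT in each tissue, and between roots and leaves.

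Auxin acts by removing repressors. The Aux/IAA proteins bind auxin response factors (ARFs) and hold them inactive, and auxin joins the Aux/IAA proteins to F-box receptors of the TIR1/AFB type, after which the repressors are degraded. ARFs bind DNA and activate or repress their targets, which include genes of the Aux/IAA, SAUR and GH3 families. In Arabidopsis, SAUR proteins promote cell expansion by acting on phosphatases that restrain the plasma membrane proton pump. GH3 enzymes join amino acids to auxin or to jasmonate and so set how much free hormone is left. In roots these families are known for their part in crown root and lateral root formation and in gravitropism, and in grass leaves for leaf angle.

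Expression was measured by sequencing of the 3′ ends of messenger RNA and given as RPM, reads per 1000000, which is not divided by transcript length. A level is read here against other samples of the same gene, and a higher RPM in one gene than in another is not read as more transcripts. The value of 1 read gave estimated totals of 16952000 to 35707000 reads on genes per sample. The labelled tissue and transgene were visible in the values. The 5 root markers summed to between 6966 and 9051 RPM in roots and to at most 4.35 RPM in leaves. The 6 leaf markers summed to between 66590 and 82190 RPM in leaves and to at most 190.2 RPM in roots. That root value was CAB1R in the NT sample, while the other 5 leaf markers were listed at 0 in every root. A share of each gene's total appears to have been subtracted before deposit, as described below. A low level of an abundant marker in the other tissue could therefore also be listed at 0. OsbZIP83 was at 32.0 RPM in NT roots and between 153.9 and 187.6 RPM in the roots of the lines. In leaves it was at 1.62 RPM in NT and between 75.3 and 100.5 RPM in the lines. In whole organs, a lower level cannot be told apart from fewer cells of the type that expresses the gene. Nothing in the labels says that the samples came from separate cultures, so the p-values here speak of the spread among 8 samples, part of which may be technical.

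The 88 members fell into 32 SAUR genes, 27 Aux/IAA genes, 20 ARF genes, 8 GH3 genes and 1 gene, Os04g0653300, described only by the domain that Aux/IAA and ARF proteins share. They lie on all 12 chromosomes. Testing required 1 RPM or more on average across all 8 samples. This left 57 members, namely 23 Aux/IAA, 16 ARF, 16 SAUR and 2 GH3 genes, and the other 31 had means of at most 0.96 RPM. Of all 88 members, 41 had a mean of at least 1 RPM in both tissues, 18 in roots only, 3 in leaves only and 26 in neither. Among the ARFs, 16 of 20 were at or above 1 RPM in both tissues and none was so in roots only. Among SAUR genes 9 of 32 reached 1 RPM in both tissues and 9 in roots only. OsIAA29 was listed at 0 in all 8 samples. Os04g0653300 was at 0 in 5 samples and reached at most 0.13 RPM.

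The descriptions do not cover the families fully. A further 37 genes carry an IAA, ARF, SAUR or GH3 symbol without one of the words used, among them IAA13, IAA12 and GH3-2, and they are outside the 88. Some symbols stand for more than 1 locus. OsARF2 here is Os01g0927600, while another locus, Os01g0670800, carries the same symbol and is outside. OsARF10 and OsARF16 each name 2 members, which are told apart by locus below. Arf75 (Os03g0345100), described by its similarity to an auxin response factor, has the DNA repair gene RAD9 as its Arabidopsis match in the table, so its place among the ARFs rests on the description alone. The same holds for Os03g0742800 among the Aux/IAA genes. It is named here by its locus, and its Arabidopsis match carries no Aux/IAA symbol in the table.

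**Figure D1:**
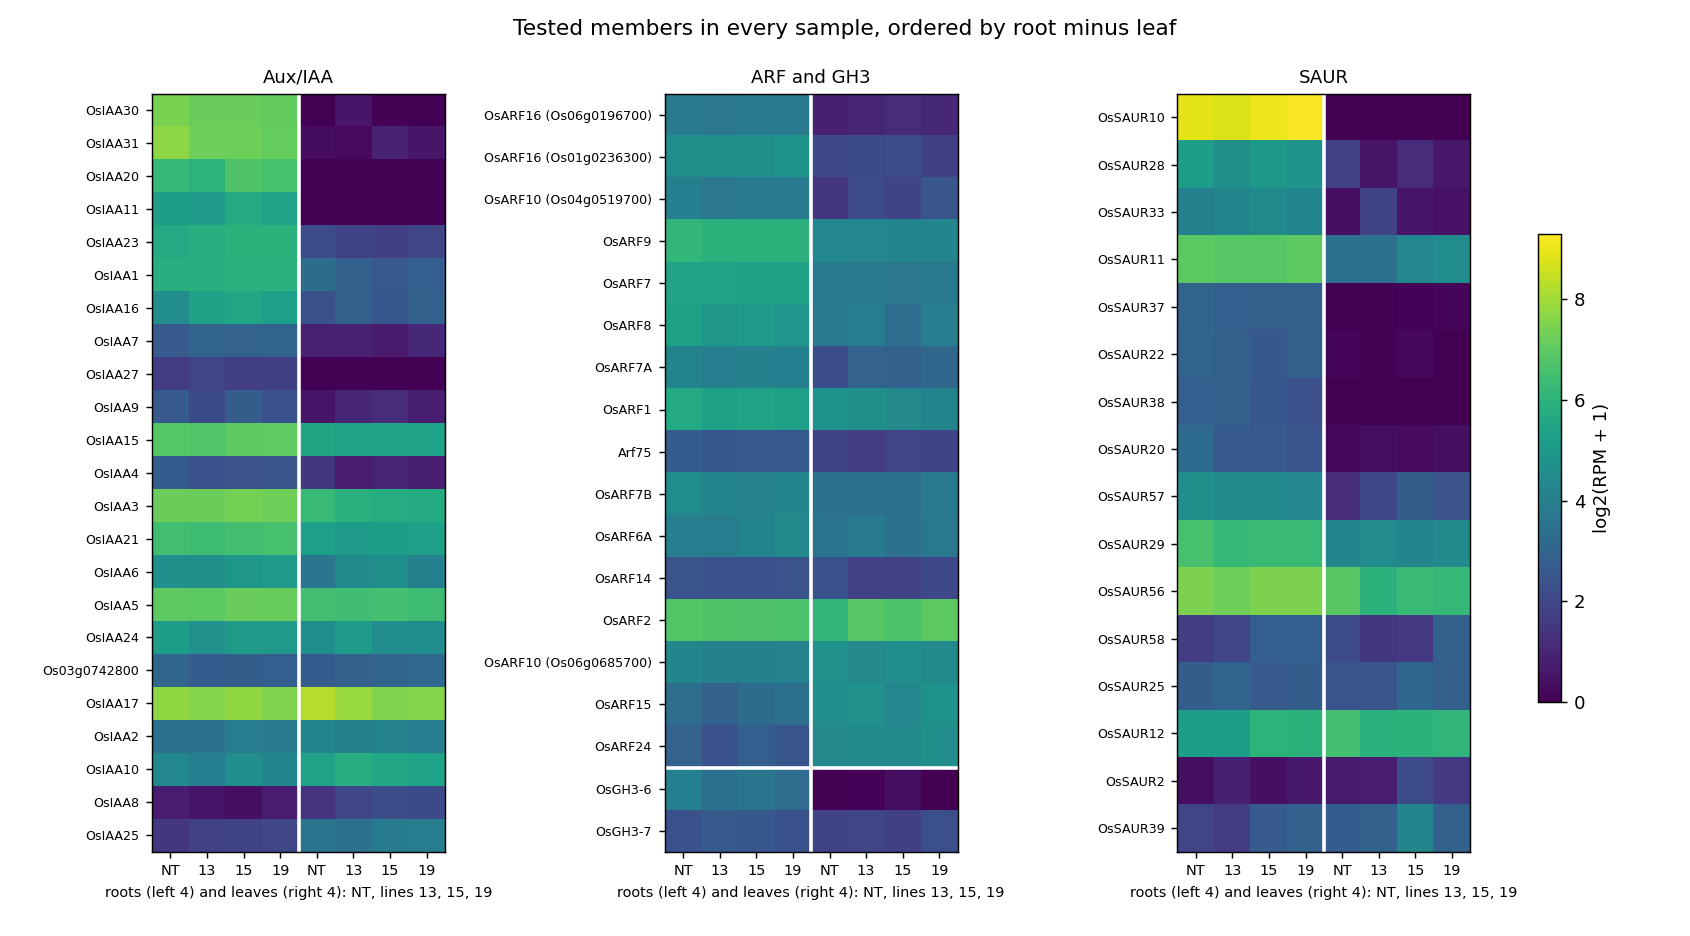
Level of each of the 57 tested members (rows) in each of the 8 samples (columns), as log2(RPM + 1), with members ordered within a family by the difference between roots and leaves. The upper rows of the Aux/IAA and SAUR panels are bright in the 4 roots and dark in the 4 leaves, and OsARF24, OsARF15 and OsIAA25 are brighter in leaves.

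Roots and leaves differed for most members, as they did for most genes. With limma on log2(RPM + 1) and Benjamini-Hochberg adjustment over all genes, 49 of the 57 tested members (86.0%) differed between the 4 roots and the 4 leaves, beside 82.7% of all 21991 genes tested. Of these, 41 were higher in roots and 8 were higher in leaves (71.9% and 14.0%), beside 58.5% and 24.2% of all genes. The scale matters for this split, since the median of all genes was itself 0.59 higher in roots on the log2 scale. Rescaling with trimmed-mean (TMM) factors brought that median to 0.03, and quantile normalization brought it to 0.10. Under TMM factors 33 members were higher in roots and 14 in leaves, beside 40.9% and 38.9% of all genes. Under quantile normalization the split was 36 and 13, beside 43.1% and 37.2% of all genes. Members with little RNA in 1 tissue can pass the filter through their level in the other. Of all 88 members, 18 averaged 1 RPM or more in roots only and 3 in leaves only, so the split was also taken without the filter. Without the filter, 50 of 87 members were higher in roots and 7 in leaves (57.5% and 8.05%), beside 42.4% and 17.8% of all genes. Among the 41 members at or above 1 RPM in both tissues, 27 were higher in roots and 7 in leaves (65.9% and 17.1%), beside 56.4% and 22.4% of the 17171 genes that met the same condition. Under TMM factors these shares were 46.3% and 29.3% for the members and 34.9% and 40.9% for all such genes. Whether the members' shares differ from those of all genes was not tested.

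**Figure D2:**
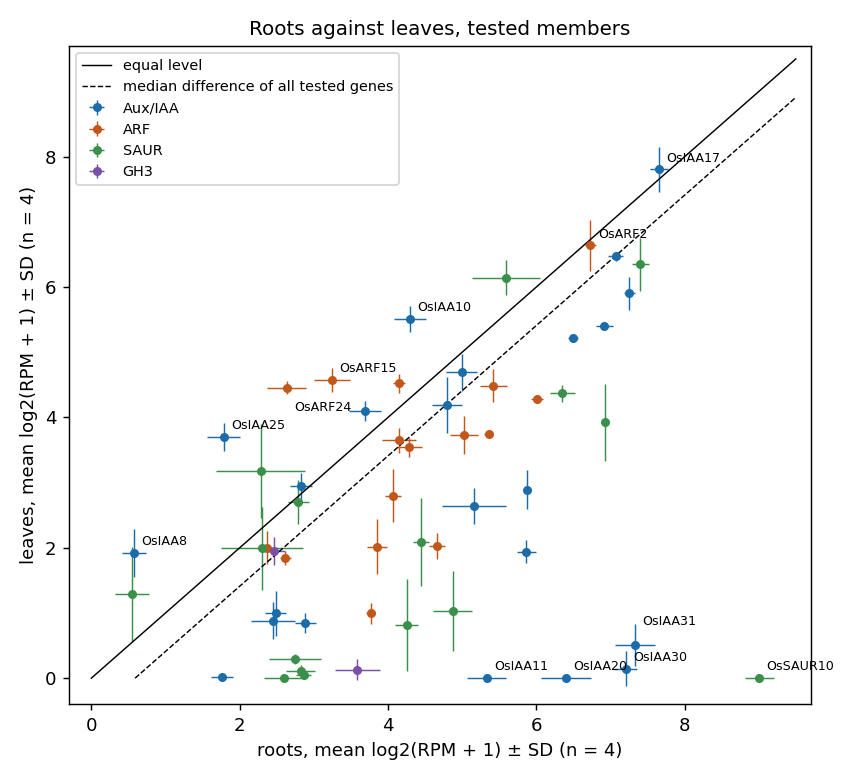
Mean level in the 4 leaves against the mean level in the 4 roots for the 57 tested members, as log2(RPM + 1) with the SD of the 4 samples on each axis, coloured by family. OsSAUR10, OsIAA20 and OsIAA11 lie on the floor of the leaf axis, and the dashed line marks the median difference of all tested genes, 0.59.

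The Aux/IAA repressors showed both patterns side by side. Of 23 tested, 16 were higher in roots and 4 in leaves, beside 58.5% and 24.2% of all genes, with a median difference of 1.49 on the log2 scale beside 0.59 for all genes. The split was 14 and 6 with TMM factors, beside 40.9% and 38.9% of all genes, and with no filter on low values the median was 1.31 beside 0.11 for all genes. OsIAA20 was at 74.2 RPM in NT roots, while the roots of lines 13, 15 and 19 had 64.0, 106.4 and 96.6 RPM, and it was listed at 0 in all 4 leaves. OsIAA11, which is known in rice for its part in lateral root formation, was at 34.7, 33.5, 50.5 and 40.6 RPM in the same 4 roots and was also listed at 0 in all 4 leaves. A small amount appears to have been subtracted from every value before deposit, in proportion to a gene's total over the samples, and with this amount added back the leaf values were 0.32 to 0.51 RPM for OsIAA20 and 0.15 to 0.24 RPM for OsIAA11. The root and leaf values did not overlap as deposited, and both genes were named after their values were seen. What is added back to a 0 is only a share of the gene's own total. It is therefore not a measured leaf level and could not have reached the root values.

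OsIAA30 and OsIAA31, neighbouring loci on chromosome 12, had the same division between tissues. OsIAA30 was at 170.5 RPM in NT roots, while the lines had 143.7, 144.5 and 131.3 RPM, and its leaf values ran from 0 to 0.47 RPM. OsIAA31 was at 209.7 RPM in NT roots, while the lines had 151.7, 151.8 and 136.5 RPM, with 0.17 to 0.91 RPM in leaves. In roots, both were highest in NT, but neither difference from NT passed the test (adjusted p = 0.635 and 0.427, limma). The 3 neighbouring loci OsIAA27, OsIAA28 and OsIAA29 on chromosome 11 were little read. OsIAA27 was at 2.04 to 2.89 RPM in roots and at most 0.05 RPM in leaves, OsIAA28 was below 0.2 RPM everywhere and OsIAA29 was at 0 throughout. OsIAA23, known in rice for maintaining the quiescent centre of the root tip, was at 57.6 ± 5.09 RPM in roots and 2.87 ± 0.50 RPM in leaves (SD, n = 4), a log2 difference of 3.93 ± 0.11 (SE; adjusted p = 1.2e-09, limma).

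Other Aux/IAA genes were higher in leaves. OsIAA25 was at 2.48 ± 0.51 RPM in roots and 12.1 ± 1.91 RPM in leaves (SD, n = 4), a log2 difference between roots and leaves of -1.92 ± 0.15 (SE; adjusted p = 1.25e-06, limma). OsIAA10 was at 18.8 ± 2.91 RPM in roots and 45.1 ± 6.63 RPM in leaves, a difference of -1.22 ± 0.13. OsIAA8 was at 0.30 to 0.64 RPM in roots and at 1.61 to 3.69 RPM in leaves, and its difference was -1.34 ± 0.19. For these 3 genes every leaf was above every root. They were named for the size of this difference, so the order is no separate observation. How many of all genes show such an order is not given here. OsIAA5 was at 133.6 ± 9.19 RPM in roots and 88.1 ± 4.37 RPM in leaves, a difference of 0.59 ± 0.08, which is the size of the median of all genes, and -0.04 with TMM factors (adjusted p = 0.674). OsIAA17 did not pass the test, at 200.6 ± 17.2 RPM in roots and 227.7 ± 56.99 RPM in leaves (difference -0.15 ± 0.16, adjusted p = 0.385, limma), but it was higher in leaves with TMM factors (-0.79, adjusted p = 0.00316) and with quantile normalization (-0.43, adjusted p = 0.0319).

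Of the ARFs, the DNA-binding partners of the Aux/IAA proteins, 16 were tested. Of these, 12 were higher in roots and 3 in leaves, beside 58.5% and 24.2% of all genes, and the median was 0.85 beside 0.59. The split was 8 and 4 with TMM factors, beside 40.9% and 38.9%. With no filter the median over all 20 ARFs was 0.62 beside 0.11. OsARF16 at Os06g0196700, whose closest Arabidopsis match in the table is ARF19, was at 12.6 ± 0.56 RPM in roots and 1.003 ± 0.22 RPM in leaves (difference 2.77 ± 0.11, adjusted p = 8.89e-09, limma). This gene is known in rice for linking auxin to the phosphate starvation response. The other OsARF16, at Os01g0236300, was at 24.3 ± 1.94 RPM in roots and 3.11 ± 0.56 RPM in leaves, a difference of 2.63 ± 0.12. OsARF9 was at 63.6 ± 3.85 RPM in roots and 18.5 ± 0.57 RPM in leaves, a difference of 1.73 ± 0.07. In each of these 3 genes every root was above every leaf. Both OsARF16 loci were named for the size of this difference, so for them the order is no separate observation. How many of all genes show such an order is not given here.

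The 2 loci called OsARF10, both matched to Arabidopsis ARF10, went in opposite directions between the tissues. The one at Os04g0519700 was at 13.4 ± 1.35 RPM in roots and 3.18 ± 1.19 RPM in leaves (difference 1.83 ± 0.20, adjusted p = 1.28e-05, limma). The one at Os06g0685700 was at 16.7 ± 1.03 RPM in roots and 22.1 ± 2.32 RPM in leaves (difference -0.38 ± 0.09, adjusted p = 0.0043, limma). OsARF2 and OsARF24 share ARF2 as their Arabidopsis match. With TMM factors both were higher in leaves, at -0.54 and -2.39 (adjusted p = 0.00687 and 9.51e-08, limma), and on the deposited scale only OsARF24 passed. OsARF2 was at 105.3 ± 5.02 RPM in roots and 101.2 ± 24.9 RPM in leaves and did not pass the test between tissues on the deposited scale (adjusted p = 0.628, limma), while OsARF24 was at 5.29 ± 1.16 RPM in roots and 20.9 ± 1.54 RPM in leaves, a difference of -1.82 ± 0.14. OsARF15, matched to ETTIN, was at 8.57 ± 1.49 RPM in roots and 22.9 ± 2.95 RPM in leaves, a difference of -1.33 ± 0.14.

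Among the SAUR genes, 11 of 16 tested were higher in roots and 1 in leaves, beside 58.5% and 24.2% of all genes, and the median was 2.40 beside 0.59. The split was 10 and 4 with TMM factors, beside 40.9% and 38.9%. That median rests on the genes that passed the filter, some of them through their root level. With no filter 16 of the 32 were higher in roots and 0 in leaves (limma; 2 lower at an unadjusted p under 0.05), beside 42.4% and 17.8% of all genes, and the median was 0.24 beside 0.11. OsSAUR10 was at 484.8 RPM in NT roots, while lines 13, 15 and 19 had 440.8, 539.8 and 603.4 RPM, and was listed at 0 in all 4 leaves. With the deducted amount added back its leaf values were 1.90 to 3.02 RPM, which is the added amount itself and not a measured level. OsSAUR28 was at 28.6 ± 5.57 RPM in roots and 1.19 ± 0.997 RPM in leaves (SD, n = 4; difference 3.84 ± 0.28, adjusted p = 8.28e-07, limma). Its leaf values of 2.57, 0.40, 1.26 and 0.53 RPM in NT and lines 13, 15 and 19 differed several-fold among themselves. OsSAUR33 was at 18.1 ± 2.002 RPM in roots (difference 3.43 ± 0.31) and in leaves was at 2.68 RPM in line 13 and at or below 0.46 RPM in the other 3 samples. OsSAUR11 was at 116.4 to 125.2 RPM in roots and at 9.58 to 21.98 RPM in leaves.

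OsSAUR12 was the SAUR gene higher in leaves, and that call was marginal. It was at 35.1, 35.9, 63.6 and 61.4 RPM in the roots of NT and lines 13, 15 and 19 and at 92.0, 61.1, 62.3 and 68.0 RPM in the leaves, so that the ranges overlapped. Its difference was -0.56 ± 0.22 (adjusted p = 0.0421, limma), and -0.29 (adjusted p = 0.224) without the NT samples. With line as a replicate block the adjusted p was 0.0513, with no filter it was 0.0629 and without line 13 it was 0.115. OsSAUR39, which in rice restrains auxin synthesis and transport, was at 2.06 to 6.45 RPM in roots and at 5.46 to 18.1 RPM in leaves. Its difference did not pass the test (-0.90 ± 0.39, adjusted p = 0.056, limma). It did pass with TMM factors (-1.43, adjusted p = 0.00738), quantile normalization (-1.42, adjusted p = 0.00812) and line as a replicate block. Near OsSAUR39 on chromosome 9, the members Os09g0545500, OsSAUR45, OsSAUR51 and Os09g0547033 stayed at or below 0.235 RPM, while SAUR40, a neighbour of OsSAUR39 outside the 88, was at 2.27 RPM in roots and 0.818 RPM in leaves on average. Another chromosome 9 pair, OsSAUR37 and OsSAUR38, was at 3.77 to 7.02 RPM in roots and at most 0.08 RPM in leaves.

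Of the 8 GH3 members, enzymes that join amino acids to auxin or jasmonate, 2 were tested. OsGH3-6 was at 15.1 RPM in NT roots, while the lines had 9.72, 10.9 and 9.01 RPM, and at 0.02 to 0.29 RPM in leaves, a difference of 3.46 ± 0.16 (adjusted p = 3.38e-08, limma). OsGH3-7 was at 4.52 ± 0.57 RPM in roots and 2.91 ± 0.61 RPM in leaves (difference 0.50 ± 0.14, adjusted p = 0.00636, limma), but this difference was 0.00 with TMM factors and -0.06 with quantile normalization, neither of which passed. OsGH3-4 was at 0.74 to 1.36 RPM in roots and listed at 0 in leaves, and OsJAR2, matched to the jasmonate-conjugating JAR1, was at 0.24 to 0.58 RPM in roots and 0.44 to 0.83 RPM in leaves. With no filter on low values, 6 of the 8 members were higher in roots and 0 in leaves (limma; 0 lower at an unadjusted p under 0.05), beside 42.4% and 17.8% of all genes. Besides OsGH3-6 and OsGH3-7 these were OsGH3-4, with a difference of 1.06 ± 0.09 (adjusted p = 6.08e-06), OsGH3-1, OsGH3-11 and OsJAR3, while OsJAR2 did not pass (-0.23 ± 0.10, adjusted p = 0.0801).

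Between the lines and NT in leaves, 4 of the 57 members passed the test, 7.02% beside 3.79% of all genes. OsARF2, OsARF7A and OsSAUR57 were higher in the lines (5.26% beside 2.66% of all genes) and OsSAUR56 was lower (1.75% beside 1.13%). By family these are 2 of 16 ARF genes and 2 of 16 SAUR genes, and none of the 23 Aux/IAA or 2 GH3 genes. The median effect over the members was 0.03 on the log2 scale beside 0.09 for all genes, a shift that TMM factors brought to 0.00 for both. All 3 lines were above NT for 18 members and below it for 16 (31.6% and 28.1%), beside 42.2% and 20.6% of all genes. A 2-fold change shared by all 3 lines, on the log2(RPM + 1) scale, was seen in 0 of the 30 members that averaged 5 RPM or more in leaves, beside 1.81% higher and 0.607% lower among all such genes.

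OsARF2, matched to an Arabidopsis factor described as a repressor of cell division and organ growth, was at 66.5 RPM in the NT leaf, while lines 13, 15 and 19 had 116.7, 99.9 and 121.7 RPM. All 3 lines were above NT, with a log2 fold change of 0.75 ± 0.13 (SE; adjusted p = 0.0262, limma). In roots the same gene was at 111.7 RPM in NT, with 106.6, 103.1 and 99.9 RPM for the lines. On the deposited scale the NT leaf stood below all 4 roots. Levels in the 2 tissues depend on the scaling, and with TMM factors the gene was higher in leaves than in roots (difference -0.54 ± 0.15, adjusted p = 0.00687, limma). Of the 20 nearest tested genes on chromosome 1, 2 passed the same test.

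OsARF7A, annotated in rice with the control of leaf angle, was at 3.67 RPM in the NT leaf, while the lines had 6.67, 6.46 and 7.86 RPM (log2 fold change 0.77 ± 0.15, adjusted p = 0.0383, limma). In roots it was at 17.5 RPM in NT, with 14.6, 16.1 and 15.1 RPM for the lines. OsSAUR57 was at 1.255 RPM in the NT leaf, while the lines had 3.09, 5.72 and 4.26 RPM (1.22 ± 0.25, adjusted p = 0.0473, limma), and at 18.8 to 22.9 RPM in roots. For these 2 genes the lines' leaves lay between the NT leaf and the roots on the deposited scale. None of the 20 nearest tested genes of OsARF7A, OsSAUR57 or OsSAUR56 passed in leaves.

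OsSAUR56 fell in the leaves of the lines. The NT leaf had 121.6 RPM, and lines 13, 15 and 19 had 62.4, 76.3 and 72.2 RPM, a log2 fold change of -0.79 ± 0.15 (SE; adjusted p = 0.035, limma). In roots the NT sample had 175.1 RPM and the lines had 149.5, 174.3 and 175.7 RPM, where the NT value lay inside the range of the lines.

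**Figure D3:**
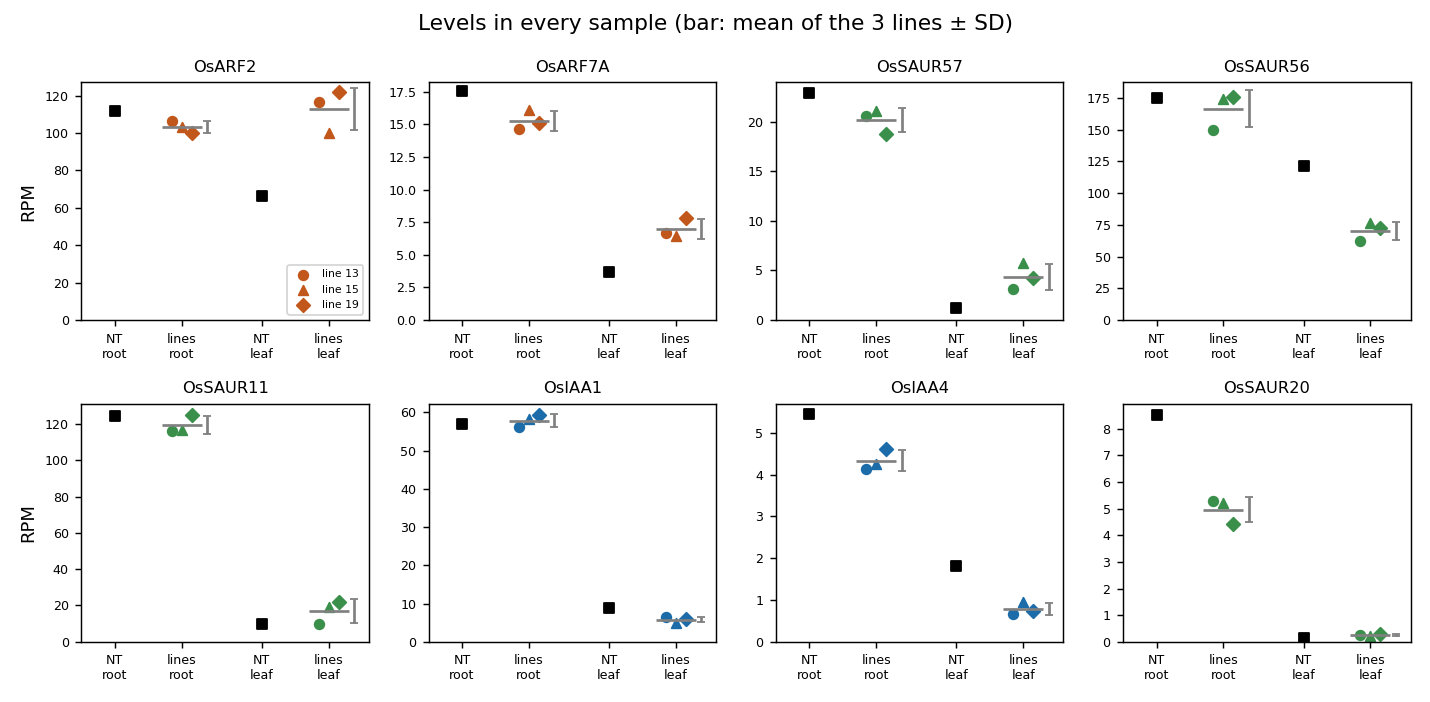
RPM in every sample for the 4 members that passed in leaves (upper row) and for the 4 that passed in leaves or roots under 1 alternative setting each (lower row), with NT as a black square, the lines as coloured symbols and the mean of the 3 lines ± SD in grey. In the upper row the leaf symbols of the lines all lie on 1 side of the NT leaf.

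These calls rest on 1 NT leaf, which is assumed to vary as the lines do, and on all 3 lines. With all 3 lines, 834 of all 21991 genes passed in leaves. Without line 15 or without line 19 none of the 57 members passed, where 211 and 90 of all genes did. The adjusted p values were then 0.0634 and 0.115 for OsARF2, 0.121 and 0.133 for OsARF7A, 0.113 and 0.192 for OsSAUR57 and 0.102 and 0.147 for OsSAUR56, with log2 fold changes of the same sign. Without line 13, OsSAUR56 and OsSAUR57 passed and so did OsSAUR11, at 9.58 RPM in the NT leaf and 9.75, 19.2 and 21.98 RPM in lines 13, 15 and 19 (log2 fold change of 1.03 without line 13, adjusted p = 0.028, limma). With TMM factors 2 members were higher and 3 lower (3.51% and 5.26%, beside 2.06% and 1.77% of all genes), since OsSAUR57 no longer passed and OsIAA1 and OsIAA4 did. With quantile normalization, 1 member was higher and 1 lower, beside 1.71% and 1.33% of all genes.

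No Aux/IAA gene passed in leaves, but 7 of the 23 had an unadjusted p under 0.05, where 21.0% of all genes had such a p. Of these, 2 were higher and 5 lower in the lines, beside 14.5% and 6.52% of all genes. With TMM factors they were again 2 and 5, beside 9.79% and 11.2% of all genes. OsIAA1 was at 8.88 RPM in the NT leaf, while the lines had 6.41, 5.04 and 5.85 RPM (log2 fold change -0.55 ± 0.14, adjusted p = 0.0767, limma, and -0.69 with adjusted p = 0.0445 under TMM factors). OsIAA4 was at 1.82 RPM in NT, while the lines had 0.68, 0.96 and 0.73 RPM (-0.66 ± 0.16, adjusted p = 0.074, and -0.81 with adjusted p = 0.0455 under TMM factors). OsIAA3 had 76.0 RPM in the NT leaf, against 58.6, 52.6 and 51.3 RPM for the lines (-0.48 ± 0.12, adjusted p = 0.0721, limma). OsIAA17 had 305.7 RPM in the NT leaf, against 234.1, 180.0 and 191.1 RPM for the lines (-0.61 ± 0.17, adjusted p = 0.0992, limma). In these 4 genes the NT leaf was the highest of the 4 leaves. They were chosen by a low unadjusted p and a fall against that leaf, so this order is no separate observation. All 3 lines lay below the NT leaf for 20.6% of all genes. The remaining lower gene was OsIAA23, at 3.54 RPM in the NT leaf against 2.69, 2.35 and 2.89 RPM (-0.32 ± 0.14, adjusted p = 0.236, limma). OsIAA8 and OsIAA6 lay the other way, at 1.61 RPM in NT against 2.98 to 3.69 RPM and at 11.5 RPM against 16.0 to 23.4 RPM, with adjusted p of 0.0859 and 0.136.

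The summed Aux/IAA level, which is led by the genes with the most reads, was 682.3 RPM in the NT leaf and 616.9, 551.2 and 542.3 RPM in the leaves of lines 13, 15 and 19. The summed ARF level was 243.1 RPM in the NT leaf and 295.3, 262.1 and 303.0 RPM in the lines. Each order rests on 1 gene. Without OsIAA17 the Aux/IAA sums were 376.6 RPM in the NT leaf and 382.8, 371.3 and 351.2 RPM in the lines, and without OsARF2 the ARF sums were 176.6 RPM and 178.6, 162.2 and 181.3 RPM, so that the NT leaf lay within the range of the lines in both. The sums were not tested.

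In roots none of the 57 members passed the test between the lines and NT, beside 1.16% of all genes (limma with Benjamini-Hochberg adjustment). At an unadjusted p under 0.05 there were 4 members, or 7.02% beside 13.5% of all genes, with 1 higher and 3 lower beside 6.16% and 7.30% of all genes. The member higher in the lines was OsIAA16, at 22.4 RPM in NT roots, while lines 13, 15 and 19 had 39.2, 45.6 and 36.8 RPM (log2 fold change 0.83 ± 0.19, adjusted p = 0.126). Its leaf values were 3.995 RPM in NT, with 6.23, 4.69 and 6.48 RPM among the lines. The 3 lower members were OsSAUR20, OsSAUR29 and OsGH3-6. OsSAUR20 was at 8.51 RPM in NT roots, while the lines had 5.29, 5.20 and 4.42 RPM (-0.68 ± 0.16, adjusted p = 0.13). It passed once the pseudocount was 5 RPM (-0.44, adjusted p = 0.0391). OsSAUR29 was at 95.9 RPM in NT, while the lines had 74.1, 76.8 and 77.7 RPM (-0.33 ± 0.13, adjusted p = 0.316). These genes, named for their unadjusted p, were chosen after their values were seen.

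**Figure D4:**
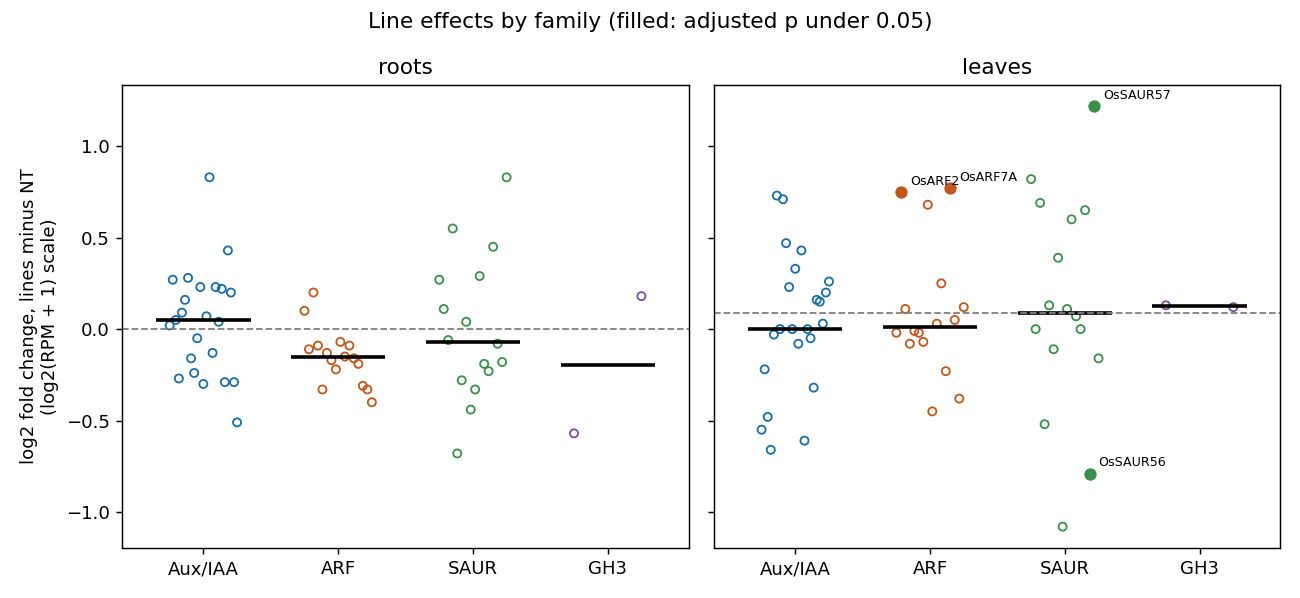
Log2 fold change of the 3 lines against NT for each tested member by family, in roots and in leaves, with the family median as a black bar and the median of all tested genes as a dashed line. Filled points mark the 4 members that passed in leaves, and in roots no point is filled, while 14 of the 16 ARF points lie below 0.

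The ARF effects in roots were small and mostly of 1 sign. Of the 16 tested ARFs, 14 had a log2 fold change below 0, with a median of -0.15 beside 0.00 for all genes and a range from -0.40 to 0.20, and none had an unadjusted p under 0.05. ARFs below NT numbered 15 for line 13, 14 for line 15 and 13 for line 19, where 50.9%, 48.0% and 49.3% of all genes lay below NT. All 3 counts use the same NT root, so they are not separate observations of a difference, and the part played by that sample was not tested. The summed ARF level was 462.3 RPM in the NT root and 408.3, 419.5 and 415.8 RPM in the lines. The Aux/IAA genes had a median of 0.05 in roots and the SAUR genes -0.07. Of all 57 members, 43 lay below NT in line 13 (75.4%), 31 in line 15 (54.4%) and 30 in line 19 (52.6%), beside the shares of all genes given above, and whether the lines differ in this was not tested. All 3 lines were below NT for 25 of the 57 members, 43.9% beside 33.4% of all genes, and above NT for 12, 21.1% beside 31.9%. Of the 47 members that averaged 5 RPM or more in roots, 0 showed a 2-fold change shared by all 3 lines, beside 0.607% higher and 0.333% lower among all such genes.

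The difference between the line effects in roots and in leaves was tested directly, and no member passed (0 of 57, beside 0.382% of all genes, limma), while 14 had an unadjusted p under 0.05 (24.6% beside 15.2%). For OsARF2 the effect was -0.11 in roots and 0.75 in leaves, a difference of -0.86 ± 0.18 (adjusted p = 0.107). For OsARF7A it was -0.19 and 0.77, a difference of -0.96 ± 0.21 (adjusted p = 0.114). For OsSAUR57 it was -0.18 and 1.22, a difference of -1.40 ± 0.36 (adjusted p = 0.151), and for OsSAUR56 -0.08 and -0.79, a difference of 0.71 ± 0.21 (adjusted p = 0.198). A leaf effect that differs from the root effect was therefore not shown for these genes at the threshold used.

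Other auxin genes were sorted by words in their symbols and descriptions into synthesis, receptors and co-repressors, transport, oxidation and conjugate cleavage, crown root regulators, and other genes described by auxin. Those words also caught some genes of other roles, such as LAX1 and LAX2, described by axillary meristem formation, among the transport genes and REL2 among the receptors, and the last list includes SAUR19 and SAUR40, which the description words did not reach. Among the 7 tested synthesis genes none passed between lines and NT, beside 1.16% of all genes in roots and 3.79% in leaves. An unadjusted p under 0.05 (limma) was seen for 1 in roots and 2 in leaves. All 7 were higher in roots than in leaves, beside 58.5% of all genes, and 5 were with TMM factors, beside 40.9%. YUCCA7, a flavin monooxygenase of auxin synthesis, had 29.2 RPM in roots and 3.69 RPM in leaves. The aminotransferase gene FIB, which acts before the YUCCA enzymes, had 28.4 and 12.6 RPM.

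Of the 8 receptor and co-repressor genes, all tested, 1 fell in the lines in both tissues, where 1.16% of all genes passed in roots and 3.79% in leaves. It was Os11g0515500, described by its similarity to the auxin receptor TIR1. It was at 27.5 RPM in NT roots, while lines 13, 15 and 19 had 15.4, 13.6 and 12.2 RPM (log2 fold change -0.96 ± 0.16, adjusted p = 0.0455, limma). In leaves it was at 10.4 RPM in NT, while the lines had 6.03, 5.84 and 5.17 RPM (-0.78 ± 0.16, adjusted p = 0.0486). The receptor genes OsAFB2 and TIR1 did not pass, and all 8 genes of the list were higher in roots than in leaves, beside 58.5% of all genes, and 6 were with TMM factors, beside 40.9%. Both calls of Os11g0515500 were lost when any 1 line was left out, with adjusted p of 0.0745 to 0.246 in roots and 0.0667 to 0.17 in leaves. Of the 12 alternatives run for each tissue, the root call was kept in 4 (adjusted p = 0.0212 to 0.246 over the 12) and the leaf call in 6 (0.0346 to 0.24). The root call was also lost with TMM factors, quantile normalization, a pseudocount of 0.1 RPM, a filter at 5 RPM and roots alone, and the leaf call with a pseudocount of 5 RPM, no filter and leaves alone.

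Of 32 tested transport genes, 1 passed, in leaves, where 3.79% of all genes did. ABCB13, an ABC transporter of the class that includes auxin carriers, was at 14.9 RPM in NT leaves, while the lines had 22.2, 22.8 and 25.01 RPM (0.61 ± 0.11, adjusted p = 0.0299, limma). The call was lost when any 1 line was left out (adjusted p = 0.0656 to 0.134) and with leaves alone (0.23), and it was kept in the other 8 of 12 alternatives. Between tissues 26 of the 32 were higher in roots and 6 in leaves, beside 58.5% and 24.2% of all genes. With TMM factors these were 19 and 6, beside 40.9% and 38.9%. The efflux carrier OsPIN2 had 16.0 RPM in roots and was listed at 0 in leaves, and PIN5A had 1.05 RPM in roots and 29.1 RPM in leaves.

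Of 7 tested crown root regulators, RR10, a response regulator of cytokinin signalling, fell in leaves from 104.5 RPM in NT to 45.8, 32.0 and 27.3 RPM in the lines (-1.58 ± 0.34, adjusted p = 0.0496, limma). Of 11 other tested genes described by auxin, OsTOP1, a DNA topoisomerase linked to auxin-regulated root growth, rose in leaves from 18.6 RPM in NT to 32.6, 30.7 and 36.2 RPM in the lines (0.80 ± 0.15, adjusted p = 0.035, limma). Each was the only leaf call of its list, where 1.13% of all genes were lower and 2.66% higher in leaves. None of the 4 genes of oxidation and conjugate cleavage passed between lines and NT (limma; unadjusted p under 0.05 for 1 in each tissue). In roots the lists other than receptors had no call, where 1.16% of all genes passed. Without line 15 the leaf calls of RR10 and OsTOP1 were lost (adjusted p = 0.106 and 0.0948), as they were without line 19 (0.199 and 0.15), and without line 13 OsTOP1 had an adjusted p of 0.0541. RR10 also did not pass with a pseudocount of 0.1 RPM, no filter, a filter at 5 RPM, quantile normalization or leaves alone, and was called in 5 of 12 alternatives (adjusted p = 0.0268 to 0.199). OsTOP1 also did not pass with no filter, quantile normalization or leaves alone, and was called in 6 of 12 (0.0341 to 0.177). Roots were higher than leaves for 4 of the 7 crown root regulators, 2 of the 4 genes of oxidation and cleavage and 8 of the 11 others, and leaves were higher for 0, 1 and 1, beside the 58.5% and 24.2% of all genes. With TMM factors the numbers higher in roots were 4, 2 and 6, beside 40.9% of all genes. Those higher in leaves were 1, 2 and 2, beside 38.9%. With quantile normalization they were 4, 2 and 4 in roots and 0, 1 and 2 in leaves, beside 43.1% and 37.2% of all genes.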

How the data were processed

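RNA from 4 root and 4 leaf samples was sequenced with Lasy-Seq, a 3′ method, per the labels' protocols. Trimmomatic 0.39, Bowtie 1.2.3, RSEM 1.2.21 and the build IRGSP-1.0 are named in the submitters' processing notes. The deposited values are a signal in RPM, and genes, ribosomal RNA and spike-in rows each sum to 1000000 per sample. Values of genes at moderate level were whole multiples of 1 read (within 0.1 read) for 9.47% to 12.3% of such genes as deposited and for 46.5% to 53.7% after 0.135% to 0.142% of a gene's total was added back, so no count test was run.

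Genes averaging 1 RPM or more were fitted with limma 3.58.1 (R 4.3.3) on log2(RPM + 1), with 4 group means, a trend and Benjamini-Hochberg adjustment over 21991 genes, two-sided, at a threshold of 0.05. Fold changes on this scale understate those of low genes. The fits were tested on simulated data with the fitted spread, normal noise and NT as variable as the lines. Changed genes were drawn only from those averaging 5 RPM or more in the tissue, or in roots for the test between tissues. At most 67 genes were changed at each size, far fewer than differ between the tissues. Recovery for members at lower levels was therefore not measured, and only 30 members averaged 5 RPM or more in leaves. Of 2-fold changes, 64.2% were recovered in roots, 65.7% in leaves and 91% between tissues, and of 4-fold changes at least 98.5%. Unchanged genes made up 14 of 189 calls in roots, 12 of 188 in leaves and 9 of 202 between tissues. Changes under 2-fold and the difference of the line effects were not simulated. Roots and leaves of a line share the line by the labels, and deviations of the 2 tissues correlated at 0.196, -0.0308 and 0.144 for lines 13, 15 and 19 over 15860 genes. Alternatives were other pseudocounts (0.1 and 5 RPM), filters (none and 5 RPM), TMM factors (computed on the RPM values), quantile normalization, the deducted reads added back, line as a block, each line left out and each tissue alone.

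Named members were those that passed between lines and NT, the 2 with the most RPM per family and tissue, the 3 largest tissue differences per family and direction, and, of the other lists, those that passed and those with the most RPM. Further members are named as examples, chosen after their values were seen. Members and lists were chosen with earlier results of these data known.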

Additional observations from a re-analysis of the deposited data

Results flagged for a closer look

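Among 43 groups of 4 samples checked for a sample far from the rest, 2 were picked out, and chance picks out about 1 in 20. For OsSAUR56 in roots, line 13 was lowest at 149.5 RPM with the other samples at 174.3 to 175.7 RPM, and its gap was 0.945 of the range. For OsARF9 in roots, NT was highest at 69.4 RPM with the lines at 61.5 to 61.9 RPM, a gap of 0.947 of the range.

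For 8 of the 57 tested members every line lay below NT in roots and above NT in leaves, 14.0% beside 11.9% of all genes. The effect in roots minus that in leaves was, on the log2 scale, -0.86 for OsARF2, -0.96 for OsARF7A, -0.90 for OsARF10 at Os04g0519700, -0.34 for OsARF16 at Os06g0196700, -0.52 for OsARF24, -1.40 for OsSAUR57, -0.81 for OsSAUR20 and -0.63 for Os03g0742800, an Aux/IAA gene by its description alone. For 3 members every line lay above NT in roots and below it in leaves, 5.26% beside 4.42% of all genes, with differences of 0.50 for OsIAA2, 0.54 for OsIAA23 and 1.08 for OsSAUR12. The test of this difference did not pass for any of the 11 (adjusted p = 0.107 for OsARF2 and higher for the others, up to 0.51, limma).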

How the results depend on the processing

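The count of members that passed between lines and NT in leaves, 4 of 57, was 2 when 5 RPM was added before the logarithm, 0 with no filter on low values (87 members tested), 2 with quantile normalization and 0 when leaves were fitted alone (54 members tested), and it ranged from 0 to 3 when a line was left out. Calls over all genes moved as well, from 834 of 21991 to 686, 692 of 37050, 670 and 54 of 21566 in the same order. With a line left out they were 90 to 803. The count in roots, 0, became 1 with a pseudocount of 5 RPM (OsSAUR20) and was 0 with each line left out. Over all genes the root count was 256, and it was 410 with that pseudocount and 64 to 253 with a line left out. The count for the difference between tissues was 0 under each alternative. With a line left out few or none of all genes passed that test, so a 0 there says little of the members. The count between roots and leaves, 49, was 46 to 48 with a line or NT left out. Over all genes that count was 18184, and it was 17118 to 18116 with a line or NT left out. OsGH3-7 reversed between roots and leaves under quantile normalization, from 0.50 to -0.06, and was 0.00 with TMM factors. The causes were not tested. Over the 4 members named in leaves, 25 of 48 alternative values kept their side of the threshold and 23 kept the direction without passing. Pairing roots and leaves by line as a replicate block gave 0 members in roots, 4 in leaves, 0 for the difference and 50 between tissues. Over all genes these counts were 255, 834, 92 and 18273. Under the block OsSAUR12 lost its call between tissues, and the 2 SAUR genes higher in leaves were OsSAUR2 and OsSAUR39. The 31 untested members were left out by the filter at 1 RPM, where 1 read was worth 0.028 to 0.059 RPM. Without the filter some of them passed between tissues, such as OsGH3-4 (adjusted p = 6.08e-06, limma). Others did not, such as OsJAR2 (adjusted p = 0.0801, limma).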
